A study of Homo sapiens with 16 samples.

Results

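The AP-1 and EGR immediate-early genes were followed through bortezomib treatment of 2 myeloma lines. The 10 genes were FOS, FOSB, FOSL1 and FOSL2 of the FOS family, JUN, JUNB and JUND of the JUN family, and EGR1, EGR2 and EGR3. They were chosen by name, as the probes whose RefSeq accession maps to one of these symbols, out of 20503 gene symbols matched to the array, and each had 1 probe. RNA came from LP-1, a human multiple myeloma cell line with a defective TRAF3 gene. One line had been transduced with a lentiviral vector encoding cIAP2 and eGFP (LP-1-cIAP2-eGFP), and the control with the vector encoding eGFP alone (LP-1-eGFP), and both were sorted for eGFP. Each line was untreated or received 10 nM of the proteasome inhibitor bortezomib, and cells were taken at 6 h and 24 h. Whether untreated cells received the solvent is not given in the sources used here. There were 2 biological replicates of each of the 8 conditions, hence 16 single-colour Agilent arrays. According to the methods, the cIAP2 probe of the array reads the endogenous transcript alone, so the arrays do not check the transgene. The paper reports the overexpression of cIAP2 in LP-1-cIAP2-eGFP by RT-qPCR and western blot.

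AP-1 is a dimer of a JUN protein with a FOS protein, another JUN protein or a related bZIP protein such as ATF2 or ATF3, and it binds the sequence TGACTCA. Mitogens and stress induce many of its genes within minutes, without new protein synthesis, and the MAP kinases JNK, p38 and ERK both raise transcription of these genes and phosphorylate the proteins. The EGR genes encode zinc finger factors, and serum response factor and its ternary complex partners act on their promoters at CArG boxes. Many of the FOS, JUN and EGR proteins are short-lived and removed by the proteasome, the enzyme that bortezomib blocks.

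Promoter matches to the AP-1 variant, heat shock, cyclic AMP and CArG motifs are shown, as sites of factors that act on immediate-early genes, and the other matches are given in words. RefSeq start-site windows on GRCh38.p14, from 250 bases before to 50 after the start, were searched on both strands for 7 motifs. The search covered 8 of the 10 genes, and FOSL1 and EGR3 were not searched. Each line gives 30 bases of the gene's own strand, 5′ to 3′, with the motif in capitals.

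JUN, AP-1 variant TGACATCA, 67 bases before the start, chr1:58784096-58784125, minus strand: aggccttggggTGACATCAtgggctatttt
JUN, heat shock element GAANNTTC, 150 bases before the start, chr1:58784179-58784208, minus strand: ggcccagagaaGAATCTTCtagggtggagt
JUND, cyclic AMP response element TGACGTCA, 200 bases before the start, chr19:18281804-18281833, minus strand: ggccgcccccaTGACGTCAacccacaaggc
EGR1, CArG box, 105 bases before the start, chr5:138465364-138465393, plus strand: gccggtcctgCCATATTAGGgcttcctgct
EGR1, CArG box, 83 bases before the start, chr5:138465386-138465415, plus strand: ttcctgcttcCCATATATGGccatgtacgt
EGR2, CArG box, 71 bases before the start, chr10:62816418-62816447, minus strand: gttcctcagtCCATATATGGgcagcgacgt

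The JUN window held both the AP-1 variant, which 2.61% of all 35116 windows held, and the heat shock element, which 6.77% held. The cyclic AMP response element, present in 1.85% of all windows, was in the JUND window. A CArG box was found in 1.29% of all windows, and EGR1 and EGR2 were the 2 of the 8 genes with one in a window. EGR2 had 3 windows, and its box lay in 1 of them. TGACTCA was found in 4.95% of all windows and in the window of FOSL2, just after its start. FOS, FOSB and JUNB each had a TATA box (TATAAA, 11.5% of all windows), and none of the 8 had the EGR site GCGTGGGCG (0.795% of all windows). These are matches of letters, and binding was not measured.

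Values below are log2 signals, quantile normalized over the 16 arrays, and a rise of 1 is a doubling of signal. A gene rose or fell when its Benjamini-Hochberg adjusted p over all tested probes, from limma, was under 0.05. Array signals do not tell how much 1 transcript exceeds another, so levels were compared within a gene. One array stood apart. Replicate 1 of bortezomib-treated LP-1-cIAP2-eGFP cells at 24 h had 35.5% of its spots well above background, while the other 15 arrays had 49.0% to 71.1%. Its difference from its own replicate had an SD of 1.48 over probes, as against 0.495 to 0.773 in the other 7 conditions. Bortezomib differences of the 10 genes, and 24 h differences of the named genes of the lists, whose call or sign changed without it are given without it too. The plasma cell markers SDC1, TNFRSF17, CD38, IRF4, XBP1 and JCHAIN were well above background on all 16 arrays and PRDM1 on 15. MS4A1 of mature B cells and CSF1R of monocytes were well above background on 0 arrays.

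JUN, the transcription factor c-Jun, rose with bortezomib in both lines at 24 h and had the largest change of the 8 tested genes there. In LP-1-eGFP it read 9.39 and 9.06 in the untreated cells at 6 h, and 11.58 and 11.41 with bortezomib. At 24 h the untreated LP-1-eGFP cells read 9.07 and 8.59, and the treated cells 12.56 and 13.38. Treated and untreated arrays did not overlap at either time, and the treated arrays were higher at 24 h than at 6 h. In LP-1-cIAP2-eGFP the 6 h values were 11.71 and 10.52 untreated and 13.14 and 12.59 treated. The 24 h values were 10.23 and 10.49 untreated and 14.31 and 14.71 treated. There too the treated arrays lay above the untreated ones at both times.

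At 24 h, JUN rose 17.6-fold in LP-1-eGFP (log2 4.14 ± 0.408 SE, adjusted p = 0.000123) and 17.8-fold in LP-1-cIAP2-eGFP (log2 4.15 ± 0.408, adjusted p = 8.8e-05). Within the slide that held arrays of both groups, the log2 difference was 4.55 in the control line and 4.28 in LP-1-cIAP2-eGFP, each over 3 arrays. At 6 h it rose 4.82-fold in LP-1-eGFP (log2 2.27, adjusted p = 0.0249), and the difference within a slide was 2.11. In LP-1-cIAP2-eGFP at 6 h JUN was 3.35-fold higher (log2 1.75), with an adjusted p of 0.0912 and a difference within a slide of 1.15. The 6 h rise in LP-1-eGFP was lost when any 1 of its 4 arrays was left out (adjusted p up to 0.204) and with the slide as a block (0.0728).

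The time course of JUN was tested directly. Among treated cells of the control line, JUN was 1.48 higher at 24 h than at 6 h, at an adjusted p of 0.0421. In LP-1-cIAP2-eGFP the same step was 1.65, at an adjusted p of 0.0183. The bortezomib response itself, treated less untreated, was larger at 24 h than at 6 h by 2.40 in LP-1-cIAP2-eGFP, at an adjusted p of 0.0324. In the control line the gain was 1.87, at an adjusted p of 0.117. Of these 3 calls, the first was lost in 12 of the 16 fits that left out an array, the second in 1 and the third in 9. Scaling to the 75th percentile ended all 3 (adjusted p = 0.0955, 0.0509 and 0.0708). Array weights ended the second and the third (0.458 and 0.304), and no filter on signal and the slide as a block the first and the third. Their values with an array left out were 1.07 to 1.88, 1.37 to 1.92 and 1.81 to 3.00. The response of JUN differed between the lines by -0.52 at 6 h (95% interval -1.82 to 0.77) and by 0.01 at 24 h (-1.28 to 1.30), with adjusted p of 1 and 0.995.

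The lines started from different levels of JUN. The 4 untreated LP-1-cIAP2-eGFP arrays read 10.23 to 11.71 and the 4 untreated LP-1-eGFP arrays 8.59 to 9.39, with no overlap. Averaged over both times, untreated cells of LP-1-cIAP2-eGFP had 3.27-fold more JUN signal than those of the control (log2 1.71 ± 0.288 SE, adjusted p = 0.00559), and within slide 2 the difference was 1.40. The methods describe no repeat of the transduction, and the SE measures spread between arrays of a line. In each comparison of the lines, an effect of cIAP2 and a difference between transduced, sorted populations cannot be told apart. The condition means ran from 8.83 in untreated LP-1-eGFP at 24 h, through 9.22 at 6 h, to 10.36 and 11.12 in untreated LP-1-cIAP2-eGFP at 24 h and 6 h. They continued with bortezomib, to 11.49 and 12.86 at 6 h in LP-1-eGFP and LP-1-cIAP2-eGFP and 12.97 and 14.51 at 24 h. Of neighbours in this order, the untreated LP-1-eGFP arrays of both times overlapped, as did untreated LP-1-cIAP2-eGFP and treated LP-1-eGFP at 6 h, and treated LP-1-cIAP2-eGFP at 6 h and treated LP-1-eGFP at 24 h. Among 2562 varying genes, MLLT11 (Pearson r = 0.974 over the 16 arrays), ZNF165 (0.966) and GZF1 (0.954) had the patterns most like that of JUN. The 16 arrays share 8 conditions and are not independent points.

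**Figure D1:**
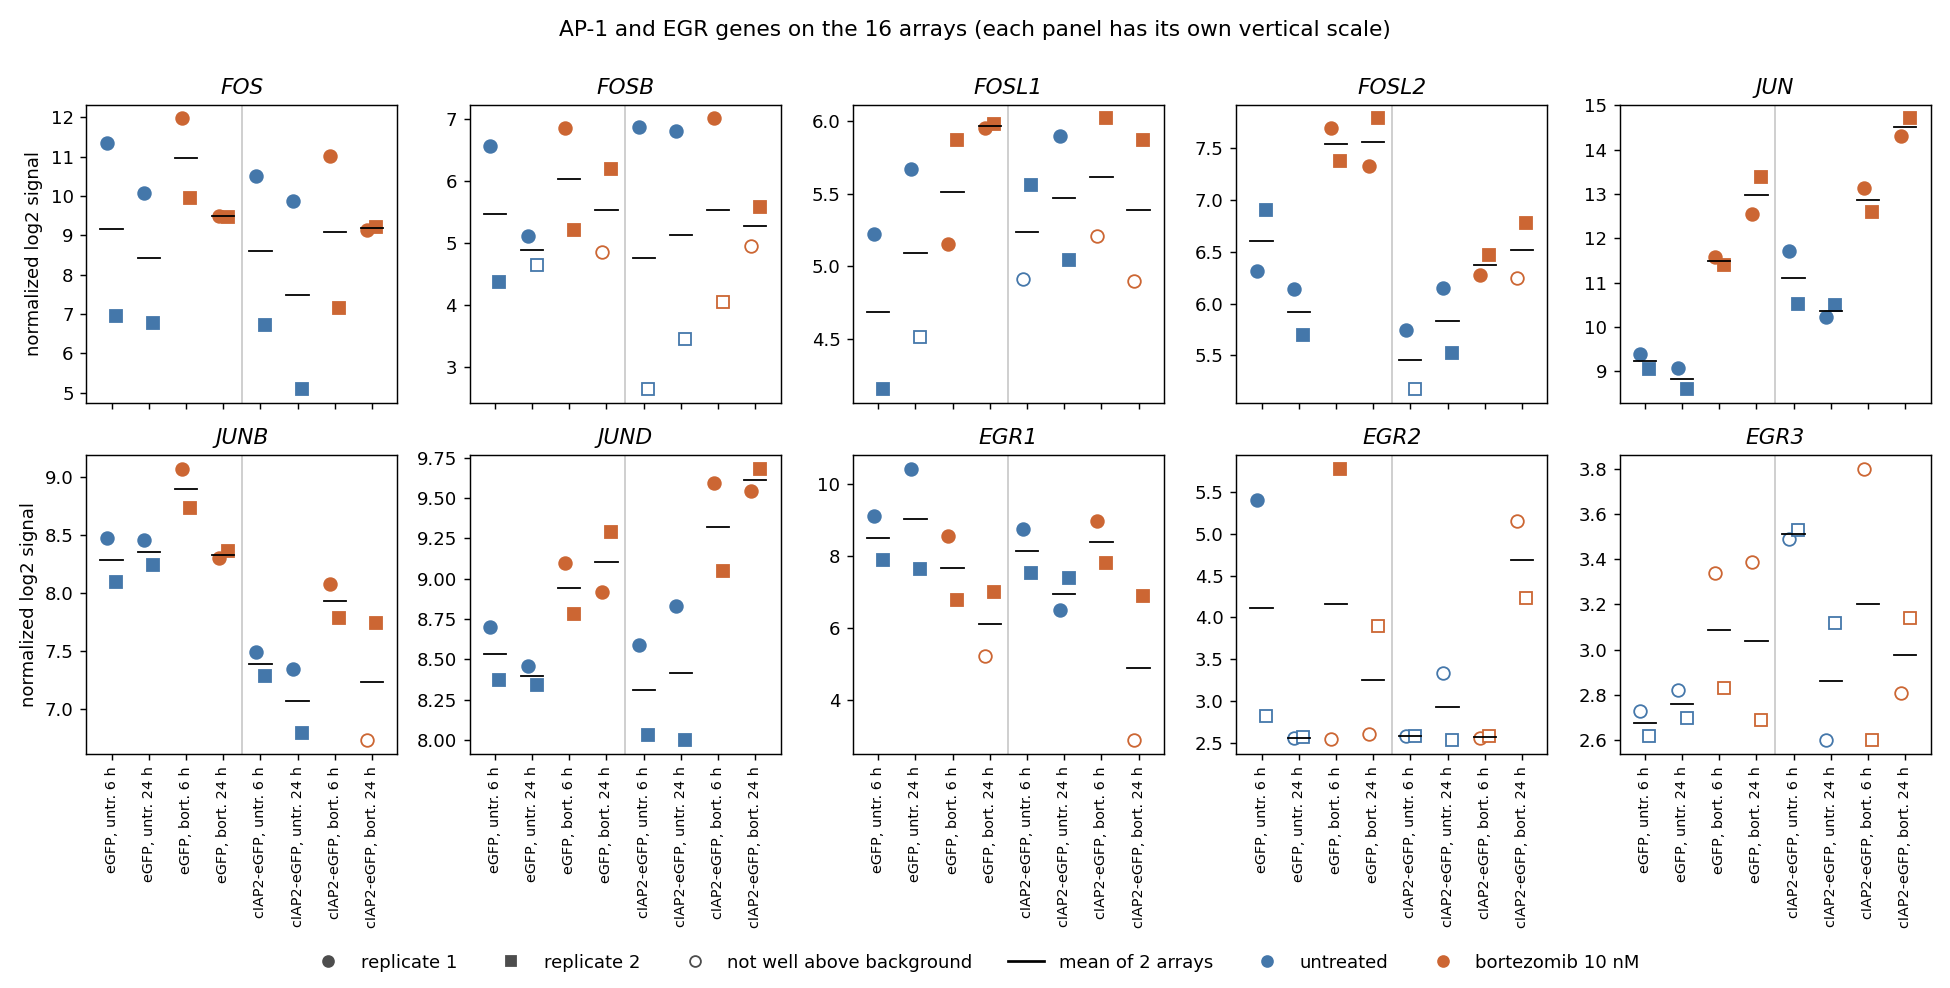
Normalized log2 signal (vertical axis, a scale for each gene) of the 10 genes on the 16 arrays, by condition (horizontal axis). Circles are replicate 1 and squares replicate 2, open symbols are spots not well above background, and lines are means of 2 arrays. JUN climbs from untreated to 6 h and 24 h of bortezomib in both lines, to 12.56 and 13.38 in LP-1-eGFP and 14.31 and 14.71 in LP-1-cIAP2-eGFP, while FOS separates by replicate number.

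JUND, which like JUN pairs with FOS proteins but is made constitutively in many cells, moved less. In LP-1-cIAP2-eGFP at 24 h it read 8.83 and 8.0 untreated and 9.54 and 9.68 treated. Both treated arrays lay above both untreated ones. JUND rose 2.29-fold there (log2 1.20 ± 0.315, adjusted p = 0.0186), and the difference within slide 1 was 0.78. The call was lost without replicate 2 of the untreated cells (log2 0.78, adjusted p = 0.143), and with another background correction (normexp, 0.46, adjusted p = 0.372) or array weights (adjusted p = 0.444). The other 3 differences with bortezomib were 0.41 and 0.71 in LP-1-eGFP at 6 h and 24 h and 1.01 in LP-1-cIAP2-eGFP at 6 h, with adjusted p of 0.811, 0.158 and 0.221.

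JUNB, often an antagonist of JUN, was the other member that differed between the untreated lines. Untreated LP-1-eGFP read 8.47 and 8.09 at 6 h and 8.46 and 8.24 at 24 h. Untreated LP-1-cIAP2-eGFP read 7.49 and 7.28 at 6 h and 7.34 and 6.79 at 24 h. All 4 LP-1-cIAP2-eGFP arrays lay below all 4 LP-1-eGFP arrays, the reverse of JUN. JUNB was 2.13-fold lower in LP-1-cIAP2-eGFP (log2 -1.09 ± 0.227, adjusted p = 0.0163), and within slide 2 by -1.38. This call was lost in 4 of the 16 fits that left out an array (log2 -1.04 to -0.96) and with normexp (-0.80, adjusted p = 0.112). With bortezomib the JUNB differences were 0.62 and 0.55 at 6 h in LP-1-eGFP and LP-1-cIAP2-eGFP and -0.02 and 0.18 at 24 h, with adjusted p of 0.543 to 0.980. The sign at 24 h turned under some scalings and backgrounds. In both lines the treated arrays were higher than the untreated ones at 6 h and overlapped them at 24 h.

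FOSL2, the FOS family member Fra-2, rose with bortezomib in the control line. At 24 h LP-1-eGFP read 6.14 and 5.70 untreated and 7.33 and 7.79 treated. At 6 h it read 6.31 and 6.90 untreated and 7.70 and 7.38 treated. The groups did not overlap at either time. The 24 h rise was 3.13-fold (log2 1.64 ± 0.332, adjusted p = 0.00605), and the 6 h difference of 0.94 had an adjusted p of 0.254. Without replicate 2 of the untreated 24 h cells the rise was 1.42 with an adjusted p of 0.0506.

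In LP-1-cIAP2-eGFP, FOSL2 read 6.15 and 5.52 untreated and 6.25 and 6.78 treated at 24 h, the value of 6.25 not well above background. The difference was 0.67 (adjusted p = 0.159), and with normexp 0.81 (adjusted p = 0.039). At 6 h it was 0.92 (adjusted p = 0.313). The 24 h response differed between the lines by -0.97 (95% interval -2.02 to 0.08, adjusted p = 0.63), so a difference of the responses was not shown.

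FOS, the founding member of its family, was measured well above background on all 16 arrays, but its replicates disagreed more than its conditions. In LP-1-eGFP at 6 h it read 11.35 and 6.96 untreated and 11.98 and 9.95 with bortezomib. At 24 h it read 10.09 and 6.78 untreated and 9.49 and 9.48 treated. Replicate 1 is given first and was the higher of the pair in each of these conditions. In LP-1-cIAP2-eGFP at 6 h FOS read 10.50 and 6.72 untreated and 11.02 and 7.15 treated. At 24 h it read 9.88 and 5.08 untreated and 9.15 and 9.22 treated. Over the 8 conditions replicate 1 exceeded replicate 2 by a mean of 2.77, in 7 of 8 conditions, and none of the 31215 tested probes with values on every array had a larger mean difference.

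Replicate numbers are not known to mark pairs. Between arrays of the same number, the bortezomib difference of FOS varied by replicate except at 6 h in LP-1-cIAP2-eGFP. At 24 h it was -0.60 in replicate 1 and 2.70 in replicate 2 of LP-1-eGFP, and -0.73 and 4.14 in LP-1-cIAP2-eGFP. At 6 h it was 0.63 and 2.99 in LP-1-eGFP and 0.53 and 0.43 in LP-1-cIAP2-eGFP. Both replicates of the treated cells at 24 h came to similar levels, between 9.15 and 9.49 over both lines. In the fit the 4 differences were 1.81, 0.48, 1.05 and 1.70 at a standard error of 2.13, none passing the test (adjusted p = 0.577 to 0.991). The 95% interval at 24 h in LP-1-eGFP ran from -3.71 to 5.82, which takes in the change seen in JUN.

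FOSB, a close relative that is induced together with FOS, shared this split by replicate in 6 of 8 conditions. At 6 h it was 6.57 and 4.37 in untreated and 6.86 and 5.21 in treated LP-1-eGFP, and 6.88 and 2.63 in untreated and 7.02 and 4.05 in treated LP-1-cIAP2-eGFP, the values of 2.63 and 4.05 not well above background. At 24 h replicate 1 was the higher in untreated cells of both lines. In treated cells replicate 2 was the higher, with 4.86 and 6.20 in LP-1-eGFP and 4.95 and 5.59 in LP-1-cIAP2-eGFP, the values of 4.86 and 4.95 not well above background. FOSB was well above background on 10 arrays, and its 4 bortezomib differences were 0.14 to 0.78 at a standard error of 1.59. FOSL1, which encodes Fra-1, read 4.15 to 6.02 over all arrays and was well above background on 12. Its differences with bortezomib were 0.83 and 0.38 at 6 h in LP-1-eGFP and LP-1-cIAP2-eGFP and 0.87 and -0.09 at 24 h, and the last turned to 0.80 with scaling to the 75th percentile and to 0.40 (adjusted p = 0.74) without the low-signal array. None of these FOSB and FOSL1 differences passed the test.

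EGR1, a growth factor and stress responsive zinc finger gene, read lower with bortezomib at 24 h, without passing the test. In LP-1-eGFP it read 10.43 and 7.65 untreated and 5.24 and 7.0 treated at 24 h. The treated arrays lay below the untreated ones, and 5.24 was not well above background. The difference was -2.92 ± 1.36 (adjusted p = 0.18). With an array left out it ran from -4.31, without replicate 2 of the untreated cells, to -1.52, without replicate 1 of them (adjusted p = 0.0699 to 0.627 over the 16 fits). In LP-1-cIAP2-eGFP the 24 h values were 6.50 and 7.40 untreated and 2.89 and 6.90 treated, and these overlapped. The value of 2.89 came from the low-signal array and was not well above background. The difference was -2.05 (adjusted p = 0.285) with that array and -0.05 (adjusted p = 0.986) without it. When the other treated array was left out instead, the fit called EGR1 lower (adjusted p = 0.0283), on that value alone, not well above background, and with the spread taken from the other conditions, so no size is given.

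At 6 h EGR1 read 9.12 and 7.89 untreated and 8.56 and 6.78 treated in LP-1-eGFP. In LP-1-cIAP2-eGFP it read 8.76 and 7.53 untreated and 8.97 and 7.80 treated. The groups overlapped in both lines, and the differences of -0.83 and 0.24 had adjusted p of 1 and 0.991. NT5DC2 (r = 0.838), VOPP1 (0.824) and S100PBP (0.824) varied most like EGR1. These correlations use all 16 arrays, and EGR1 was well above background on 14 of them. EGR2 and EGR3 were not tested. EGR2 was well above background on 2 arrays, at 5.41 in replicate 1 of untreated and 5.78 in replicate 2 of treated LP-1-eGFP at 6 h. EGR3 read 2.60 to 3.80 and was well above background on 0 arrays.

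Counted over the 10 genes, of which 8 were tested, bortezomib at 6 h raised 1 in the control line (JUN), where 1.95% of all tested probes changed and 1.26% rose. In LP-1-cIAP2-eGFP at 6 h limma called 0, where 1.09% of all tested probes changed, and 3 of the 8 had an unadjusted p under 0.05. At 24 h the 2 that rose were JUN and FOSL2 in LP-1-eGFP and JUN and JUND in LP-1-cIAP2-eGFP, and 0 fell. Of all tested probes 9.81% rose and 11.2% fell in the control line at 24 h, and 11.1% rose and 17.5% fell in LP-1-cIAP2-eGFP. No test was made of these counts against those shares. The median difference of the 8 tested genes at 6 h was 0.72 in the control line and 0.66 in LP-1-cIAP2-eGFP, beside -0.03 and 0 over all probes. At 24 h it was 0.79 and 0.43, beside -0.03 and -0.16.

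The response changed with time for 0 of the 8 in LP-1-eGFP by limma (1 at an unadjusted p under 0.05), where 3.93% of all probes were called. In LP-1-cIAP2-eGFP it rose for 1, JUN, where 3.25% of all probes rose. JUN alone of the 8 rose between the 2 times under bortezomib, as did 5.51% of all probes in LP-1-eGFP and 8.37% in the other line. Without drug, limma called 0 of the 8 between 24 h and 6 h, with 0% of all probes in the control line and 0.0208% in LP-1-cIAP2-eGFP, and 0 members had an unadjusted p under 0.05. The responses of the lines differed for 0 of the 8 at 6 h (0.00297% of all probes) and at 24 h (0.0712%), again with 0 at an unadjusted p under 0.05. Between the untreated lines 2 of the 8 differed. JUN was higher in LP-1-cIAP2-eGFP, as were 2.85% of all probes, and JUNB lower, as were 4.9%.

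**Figure D2:**
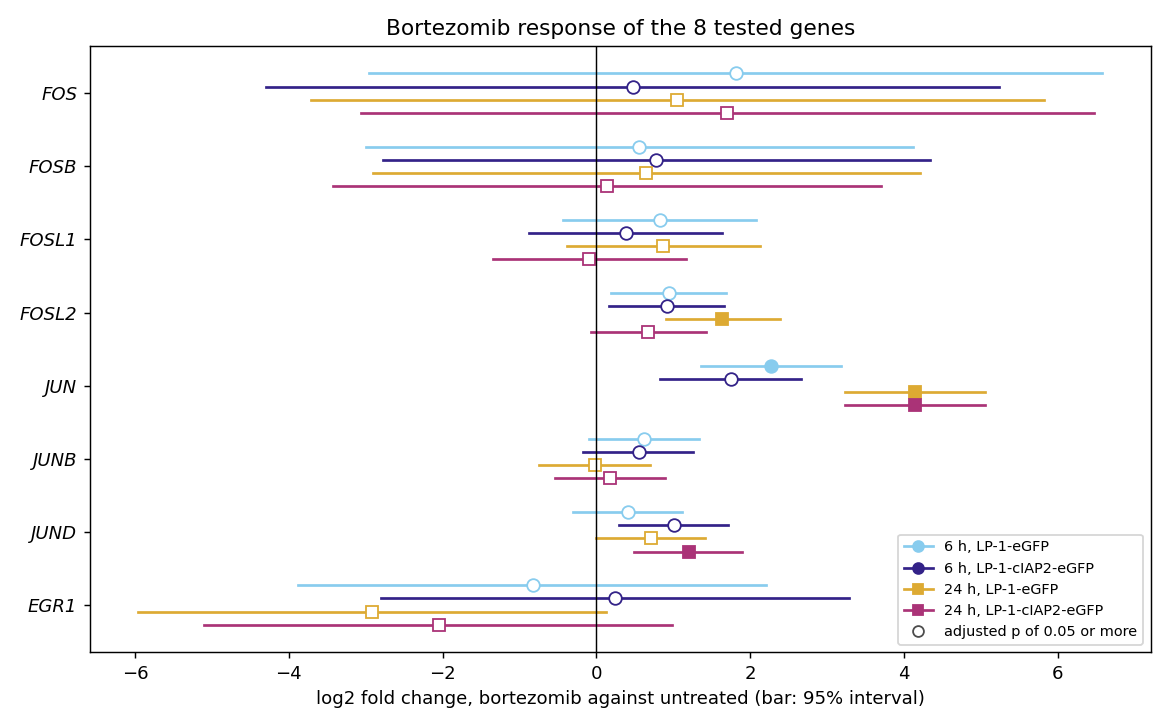
Log2 fold change of the 8 tested genes with bortezomib (horizontal axis), with 95% intervals as bars, at 6 h (circles) and 24 h (squares) in both lines, where filled symbols passed an adjusted p under 0.05. The intervals of JUN at 24 h lie between 3.23 and 5.06, while those of FOS, FOSB and EGR1 span zero in all 4 comparisons.

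The bZIP partners of JUN included ATF3, which had the largest change of all the listed genes tested at 24 h in both lines. ATF3, a stress-induced partner, read 11.42 and 9.45 in untreated and 14.61 and 15.02 in treated LP-1-eGFP at 24 h. In LP-1-cIAP2-eGFP it read 9.43 and 9.18 untreated and 16.22 and 16.29 treated. The rise was 4.38 in the control line, at an adjusted p of 0.000406, and 6.96 in LP-1-cIAP2-eGFP, at 2.55e-05. In the control line it was 3.40 without replicate 2 of the untreated cells and 5.36 without replicate 1 of them, and passed in both fits. At 6 h ATF3 had already risen by 3.41 and 2.91 (adjusted p = 0.0154 and 0.0396). With an array left out these calls were lost in 4 and 12 of the 16 fits (3.29 to 3.52 and 2.44 to 3.38), and the second was lost with the slide as a block and with no filter on signal too. Its other 3 tested probes gave 0.13 to 4.09 and 0.86 to 6.43 at 24 h. At 6 h they gave 0.03 to 3.15 and -0.13 to 3.04, and 2 of the 3 passed in the control line and 1 in LP-1-cIAP2-eGFP. ATF2, a partner that JNK and p38 phosphorylate, rose by 0.79 in each line at 24 h, and its second probe gave 0.82 and 0.45, the latter not passing the test. Of the 7 partner genes 5 were tested, and 2 rose and 0 fell at 24 h in each line, with a median of 0.88 in the control line and 0.79 in LP-1-cIAP2-eGFP.

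Of 16 MAP kinase and ternary complex genes 15 were tested. At 24 h 3 rose and 1 fell in LP-1-eGFP, and 2 rose and 4 fell in LP-1-cIAP2-eGFP, with 0 called at 6 h in either line. Of those 4, MAP2K6, SRF and ELK1 were each well above background on 15 arrays, SRF on all but the low-signal array. The medians at 24 h were 0.04 and 0.22. Beside this and the other lists stand the shares of all probes at 24 h, of which 9.81% rose and 11.2% fell in LP-1-eGFP and 11.1% rose and 17.5% fell in LP-1-cIAP2-eGFP, and the list counts were not tested against them. MAP3K5, the stress kinase ASK1, fell at 24 h, with a log2 change of -1.29 in the control line and -1.91 in LP-1-cIAP2-eGFP, at adjusted p of 0.00246 and 0.000211. MAP2K3, which activates p38, rose by 1.10 and 0.97, though its other 2 probes gave 0.97 and -0.08 in LP-1-eGFP and 0.49 and -0.71 in LP-1-cIAP2-eGFP. MAP2K1, which activates ERK, rose by 0.68 and 0.47. The first of these calls was lost without replicate 1 of the treated cells (adjusted p = 0.0707), and the second in 11 of 16 fits that left out an array.

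The MAP kinase phosphatases switch these kinases off. DUSP5, which acts on nuclear ERK, read 5.13 and 4.96 in untreated and 8.87 and 8.98 in treated LP-1-eGFP at 6 h. This was a rise of 3.88 (adjusted p = 0.00733), a call lost when any 1 of those 4 arrays was left out (up to 0.0794), and at 24 h it rose by 2.30 in the control line and 1.85 in LP-1-cIAP2-eGFP. In LP-1-cIAP2-eGFP at 6 h DUSP5 was not well above background untreated and was at least 4.12-fold higher with bortezomib. It did not pass the test, but did when either treated 24 h array of that line, the low-signal array or its replicate, was left out. The 24 h calls of DUSP5 were lost without replicate 2 of either condition in each line, and in LP-1-cIAP2-eGFP without replicate 1 of the untreated cells too. With an array left out its value ran from 1.87 to 2.73 in the control line (adjusted p up to 0.0829) and from 1.00 to 2.70 in LP-1-cIAP2-eGFP (up to 0.112). DUSP10, which acts on p38 and JNK, rose by 2.16 and 1.77 at 24 h, and the second call was lost without replicate 2 of the untreated cells (adjusted p = 0.0533). Of the 8 phosphatase genes, all tested, 2 rose and 1 fell at 24 h in LP-1-eGFP and 3 rose and 0 fell in LP-1-cIAP2-eGFP, with medians of 0.64 and 1.53.

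Of 20 other immediate-early genes 17 were tested, and NR4A1, CCN1 and EGR4 were not. At 24 h 5 rose and 3 fell in LP-1-eGFP, and 6 rose and 3 fell in LP-1-cIAP2-eGFP, with medians of 0.51 and 0.39. BTG2, an antiproliferative gene, fell at 24 h by a log2 change of -2.33 and -2.05, from 14.54 and 13.88 to 11.76 and 12.01 in LP-1-eGFP and from 14.62 and 14.33 to 12.21 and 12.65 in LP-1-cIAP2-eGFP. At 6 h it had differed by -0.21 and -0.02. KLF2, a quiescence-associated factor of lymphocytes, fell at 24 h by a log2 change of -1.23 and -2.69, and the first call was lost without replicate 1 of the treated cells (adjusted p = 0.0513). KLF6 and IER3 went the other way, with rises of 1.45 and 2.42 for KLF6 and 1.74 and 1.87 for IER3. The KLF6 rise in LP-1-eGFP was lost without either treated array or without replicate 2 of the untreated cells (0.91 to 2.00, adjusted p up to 0.226). The second KLF6 probe gave -0.01 and -1.44, neither passing the test. Immediate-early genes both rose and fell in the same RNA samples at 24 h.

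NAB1 and NAB2, corepressors that bind EGR proteins, did not pass the test in either line at 24 h by their brightest probes. NAB2 differed by 0.19 in the control line and -0.65 in LP-1-cIAP2-eGFP. The latter was 0.47 without the low-signal array, whose NAB2 value was not well above background. Without the other treated array the fit gave -1.76 and called NAB2 lower, on that value alone, so this is no measured size. NAB1 differed by 0.24 and 0.18, while the second NAB1 probe gave -0.76 in LP-1-cIAP2-eGFP (adjusted p = 0.0215). Of 12 target genes of AP-1 and EGR 6 were tested, and MMP3, TIMP1, CCND1 and CXCL8 were well above background on 0 arrays. At 24 h 0 rose and 1 fell in LP-1-eGFP, and 3 rose and 0 fell in LP-1-cIAP2-eGFP, with medians of -0.32 and 0.50. The 3 that rose were HBEGF and, named after their values were seen, VEGFA (1.58, adjusted p = 0.0179), an angiogenic growth factor, and SPRY2 (0.61, adjusted p = 0.0253), an inhibitor of growth factor signalling. Without the low-signal array VEGFA (1.53, adjusted p = 0.0646) and SPRY2 (0.61, adjusted p = 0.0521) did not pass. HBEGF, an EGF receptor ligand, was measured on few arrays at 24 h. In LP-1-eGFP it read 5.8 and 7.13 untreated and 4.24 and 5.00 treated, the value of 4.24 not well above background. The fitted log2 change was -1.84 (adjusted p = 0.0153), a call lost without that array or without replicate 2 of the untreated cells (adjusted p up to 0.121). In LP-1-cIAP2-eGFP it was not well above background untreated and read 5.85 and 6.17 treated, of which 6.17 alone was well above background, so no fold is given.

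**Figure D3:**
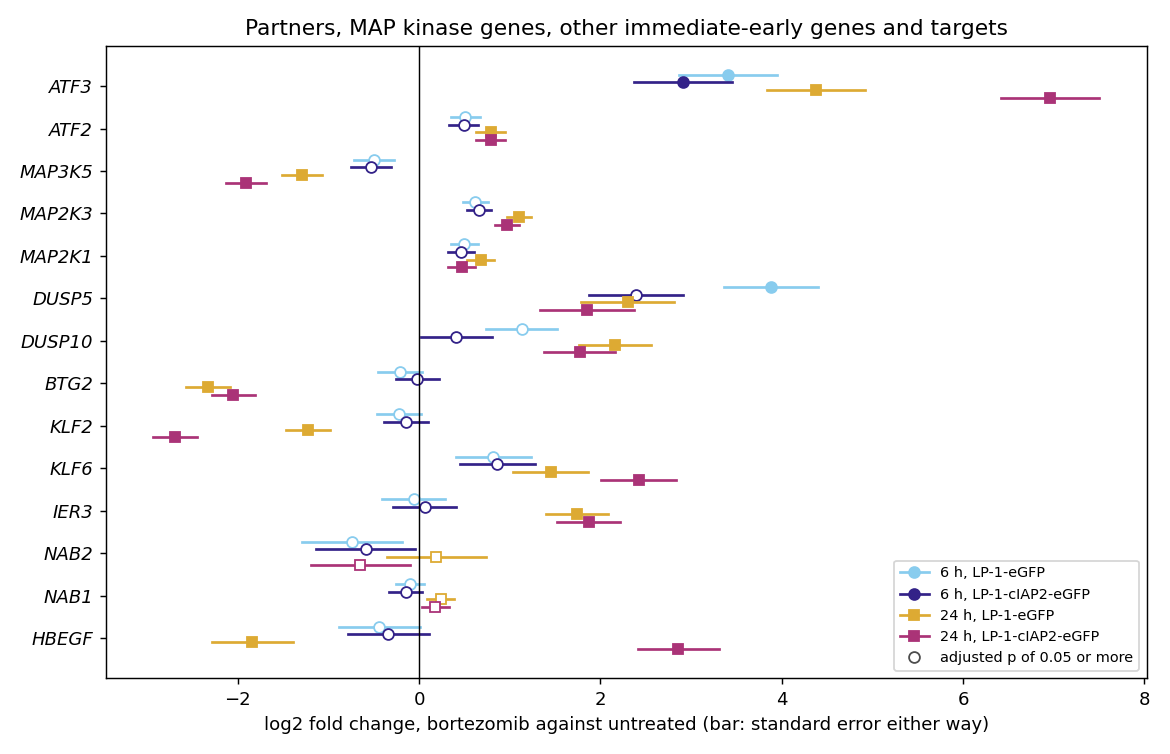
Log2 fold change with bortezomib (horizontal axis, bars of 1 standard error either way) of partner, MAP kinase, phosphatase, other immediate-early, corepressor and target genes, at 6 h and 24 h in both lines. ATF3 reaches 6.96 and BTG2, KLF2 and MAP3K5 lie below zero at 24 h. The points of HBEGF at 24 h rest in part on spots not well above background.

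Other transcripts moved in the same comparisons. The plasma cell markers fell at 24 h for 5 of 7 genes in LP-1-eGFP and 6 of 7 in LP-1-cIAP2-eGFP, with a median of -1.47 in each, and SDC1 (syndecan-1) fell at 6 h too. Of all tested probes at 24 h, 11.2% fell and 9.81% rose in LP-1-eGFP, and 17.5% fell and 11.1% rose in LP-1-cIAP2-eGFP. Of 8 markers of other cells 7 were matched and 4 tested. At 24 h 0 of the 4 were called in the control line, with a median of 0.31, and 1 rose in LP-1-cIAP2-eGFP, with a median of 1.25 that includes the low-signal array. Among treated cells, 1 of the 4 was higher at 24 h than at 6 h in each line. The summed linear signal of the 7 was 4190 on the low-signal array, where the CD2 probe was the brightest, 1270 on its replicate and 469 to 919 on the other 14 arrays. The part of these in the changes of JUN, JUND and ATF3 was not tested. Without the low-signal array JUN in LP-1-cIAP2-eGFP rose by 4.35 at 24 h (adjusted p = 0.000393) and JUND by 1.26 (adjusted p = 0.0446). In cells pooled for RNA, a change per cell and a change in which cells remain cannot be told apart.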

How the data were processed

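The 16 single-colour Agilent SurePrint G3 arrays were read from the deposited scanner files, whose intensity values the authors had made with Feature Extraction 10.7.3.1, per the file headers, with background subtracted and no normalization between arrays. The authors also deposited log2 values, which the Methods describe as quantile normalized, and each probe there was centred on its median. This table served as an alternative. Outlier spots were left out, spots of a probe averaged on the log2 scale and arrays quantile normalized. A probe was tested where both arrays of some condition showed it well above background (33731 of 50599 probes). Symbols came from RefSeq accessions (28174 probes matched, 20503 symbols).

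limma 3.58.1 in R 4.3.3 fitted a mean per condition over all arrays (prior degrees of freedom 1.61), with Benjamini-Hochberg adjustment over all tested probes. The fit was tested on simulated data. The members, gene lists and tests were chosen with earlier results of these data known. From each list the text names up to 4 genes that passed at 24 h in both lines, by mean absolute change, or the 2 with the largest change where none passed. A gene's brightest probe is reported. For FOS, JUN and EGR1 the 3 genes of highest Pearson r are named, among genes well above background on all 16 arrays whose condition means had an SD of at least 0.5. A bound ("at least") sets the brighter group against the lowest signal well above background on each array of the dimmer group. Array number, 2 for each condition, limits the precision. Arrays of 1 condition may differ by technical spread too. Slide was taken from the file headers, and each of 2 slides held several conditions, without balance. All treated LP-1-cIAP2-eGFP arrays lay on slide 1. Both treated LP-1-eGFP arrays of 6 h and both untreated ones of 24 h lay on slide 2. The responses of the 2 lines could therefore not be compared within a slide. A result for 1 of the markers of other cells is not reported here.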

Additional observations from a re-analysis of the deposited data

Results flagged for a closer look

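Among the 10 genes and the named genes of the lists, several responded differently to bortezomib at 24 h and at 6 h by the test of that difference. JUN gained 2.40 in LP-1-cIAP2-eGFP (adjusted p = 0.0324), a call lost in 9 of the 16 fits that left out an array, with scaling to the 75th percentile (2.11, adjusted p = 0.0708), with no filter on signal (0.0623), with the slide as a block (0.0537) and with array weights (0.304). In the same line ATF3 gained 4.04 (adjusted p = 0.0129), while MAP3K5 gave -1.38 (adjusted p = 0.0254) and KLF2 -2.54 (adjusted p = 0.00318). BTG2 gave -2.12 in LP-1-eGFP (adjusted p = 0.0106) and -2.03 in LP-1-cIAP2-eGFP (adjusted p = 0.00757). Of the other pathway genes, looked at after their values were seen, SRF (-3.58, adjusted p = 0.00801), IER5 (1.60, adjusted p = 0.00562), NR4A2 (1.46, adjusted p = 0.0344) and SPRY2 (1.32, adjusted p = 0.0128) passed the same test in LP-1-cIAP2-eGFP. SRF, which encodes serum response factor, read 9.09 and 8.65 untreated and 5.70 and 7.22 treated there at 24 h, and the value of 5.70 came from the low-signal array and was not well above background. Without that array the SRF difference was -2.82 (adjusted p = 0.00378). Of the fits that left out an array, the calls of SRF, IER5, KLF2 and, in LP-1-cIAP2-eGFP, BTG2 held in 16 of 16, those of ATF3 and SPRY2 in 14, of MAP3K5 in 10 and of NR4A2 in 6. In LP-1-eGFP that of BTG2 held in 12. Array weights ended the calls of ATF3 (adjusted p = 0.113), MAP3K5 (0.148), KLF2 (0.0678), BTG2 (0.0659), IER5 (0.0723), NR4A2 (0.297) and SPRY2 (0.159) in LP-1-cIAP2-eGFP. Normexp and no filter on signal ended that of MAP3K5, scaling to the 75th percentile that of IER5, the authors' values that of SPRY2, no filter and the mean-variance trend that of NR4A2, and the slide as a block that of BTG2 in LP-1-eGFP. The fit gave HBEGF a gain of 3.20 in LP-1-cIAP2-eGFP (adjusted p = 0.0153), which is no measured size, since it was not well above background in 3 of the 4 LP-1-cIAP2-eGFP conditions and on 1 array of the other.

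The fitted response of HBEGF also differed between the lines, by 4.71 at 24 h (adjusted p = 0.0455), a call lost in 13 of the 16 fits that left out an array (4.04 to 5.37) and with the authors' values (4.76, adjusted p = 0.0671) and normexp (1.24, adjusted p = 0.521). This too is no measured size: the untreated LP-1-cIAP2-eGFP arrays and 1 treated array of each line were not well above background for HBEGF.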

How the results depend on the processing

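Counts are of the 10 genes, of which 8 were tested. Array weights gave 3 at 6 h in LP-1-eGFP (JUN, JUNB and FOSL2), 1 at 6 h and 1 at 24 h in LP-1-cIAP2-eGFP, and 0 for the change of response and for 24 h against 6 h under bortezomib in that line. Both arrays of a condition get the same weight, so the weights cannot set aside 1 array of a pair. They also ended the 24 h calls of ATF2 (adjusted p = 0.156), KLF6 (0.187) and IER3 (0.149) in LP-1-cIAP2-eGFP and of KLF6 in LP-1-eGFP (0.081), where no filter on signal (0.0585) and the slide as a block (0.0718) did so too. The slide as a block and no filter on signal each gave 0 at 6 h in LP-1-eGFP, 0 for the change of response in LP-1-cIAP2-eGFP and 0 between times under bortezomib in LP-1-eGFP. Scaling to the 75th percentile gave 0 for the change of response in LP-1-cIAP2-eGFP and 0 between times under bortezomib in either line. Probes well above background on all 16 arrays alone gave 1 at 6 h in LP-1-cIAP2-eGFP, 1 at 24 h in LP-1-eGFP, 1 for the change of response in LP-1-eGFP and 1 between the untreated lines, since FOSL2 and JUNB were then not tested. The mean-variance trend gave 1 at 6 h in LP-1-cIAP2-eGFP and 1 for the change of response in LP-1-eGFP, and normexp gave 1 between the untreated lines. The cause of these shifts was otherwise not tested. Of these 130 counts 109 were scored as the same. The scoring of the fits that left out an array took a count of 3 as the same as 2.

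Leaving out each array in turn, where the lone array of a condition was assumed to vary like the others, gave counts of 0 to 1 at 6 h in LP-1-eGFP, 1 to 2 at 24 h in LP-1-eGFP, 1 to 3 at 24 h in LP-1-cIAP2-eGFP, 0 to 1 for the change of response in LP-1-cIAP2-eGFP, 0 to 1 and 0 to 3 between times under bortezomib in LP-1-eGFP and LP-1-cIAP2-eGFP, and 1 to 2 between the untreated lines. The rise of JUN at 24 h in both lines and its difference between the untreated lines passed in every alternative. Signs turned for FOS at 6 h in LP-1-cIAP2-eGFP with the slide as a block (-0.05), for FOSB at 24 h in that line with normexp (-0.35) and slide (-0.37), and for FOSL1 there with the 75th percentile (0.80), normexp (0.10) and slide (0.03). They turned for JUNB at 24 h in LP-1-eGFP with the 75th percentile (0.04) and normexp (0.07) and in LP-1-cIAP2-eGFP with normexp (-0.30). None of these passed the test. With an array left out, the 4 bortezomib differences, in the order 6 h in LP-1-eGFP and LP-1-cIAP2-eGFP and then 24 h in each, spanned -0.39 to 4.01, -1.46 to 2.41, -0.61 to 2.71 and -0.70 to 4.11 for FOS, and -0.54 to 1.66, -1.34 to 2.90, -0.03 to 1.32 and -1.55 to 1.83 for FOSB. In LP-1-cIAP2-eGFP FOSL1 spanned -0.03 to 0.79 at 6 h and -0.57 to 0.40 at 24 h. At 24 h in LP-1-eGFP and LP-1-cIAP2-eGFP, JUNB spanned -0.13 to 0.09 and -0.33 to 0.68, and NAB2 -0.02 to 0.41 and -1.76 to 0.47. At 6 h EGR1 spanned -1.72 to 0.06 and -0.37 to 0.86.

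Over 28 pairs of conditions, deviations of same-numbered arrays correlated with r of -0.113 to 0.236, and 7 were over 0.1, where pairing asked for all to be. The numbers were thus not taken as a pairing, although FOS and FOSB split by them. With a replicate block the counts kept their values, JUN at 24 h rising by 4.14 (adjusted p = 0.000228) and 4.15 (0.000165), and FOS by 1.05 (0.648) and 1.70 (0.323). Each gene had 1 probe, so averaging probes was not run. The 2-fold limit changed no count of members.

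Over all probes the number called moved by over 1.5 times in some alternative of every comparison. Bortezomib at 6 h changed 659 probes in LP-1-eGFP (70 to 5487) and 366 in LP-1-cIAP2-eGFP (84 to 1737), and at 24 h 7080 (4416 to 10626) and 9631 (2840 to 17764). The response changed with time for 1325 (330 to 3791) and 2910 (732 to 12690), treated cells differed between times for 4329 (1782 to 8452) and 7265 (1071 to 16555), and the untreated lines for 2613 (1439 to 5072). Untreated cells differed between times for 0 (0 to 7) and 7 (0 to 30), and the responses between lines for 1 (0 to 12) and 24 (0 to 9338). Scaling to the 75th percentile moved the median of all probes at 24 h in LP-1-cIAP2-eGFP from -0.16 to 0.21, where JUN was then higher by 3.91. That scaling moved the share of higher calls from 70.2% to 81.7% at 6 h in LP-1-cIAP2-eGFP, from 38.1% to 26.5% for the change of response in LP-1-eGFP and from 66.7% to 77.8% for the difference of the responses at 24 h.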

Other observations

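After FOS was seen to split by replicate number, probes with signal well above background on each of the 16 arrays were ranked by their mean difference between replicates 1 and 2. FOS was first of 12135 at 2.77. It was followed by MKLN1 at -1.34, the small nucleolar RNA gene SNORA27 at 1.33, DST and the long noncoding RNA MIR181A1HG at 1.31 each, SNORA19 at 1.19 and MALAT1 at 1.15. DUSP1, an immediate-early phosphatase gene, was at 1.09. MIR181A1HG (r = 0.795), SCARNA16 (0.771) and STBD1 (0.725) were also the genes that varied most like FOS over the 16 arrays. JUN had a mean difference between replicates of 0.15, which 52.8% of tested probes exceeded in size, and EGR1 one of 0.19.

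JUN and JUND had a Pearson r of 0.83 over the 16 arrays, and FOSL2 and JUNB one of 0.66. These are descriptions over arrays that share conditions.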
